A study of Homo sapiens with 34 samples.

Results

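The genes described here are the nuclear genes for the subunits of the mitochondrial respiratory chain and ATP synthase, with a few of their assembly factors. They were chosen by name: every gene whose symbol begins with NDUFA, NDUFB, NDUFC, NDUFS, NDUFV, UQCR, COX4I, COX5, COX6, COX7, COX8 or ATP5, together with SDHA, SDHB, SDHC, SDHD, CYC1 and CYCS. This gave 99 of the 17587 genes listed in at least 1 of the 6 deposited tables, and 96 of the 13307 genes listed in all 6. Complex I held 38 of the 99, its NDUFAF assembly factors 8, complex II 4, complex III 10, cytochrome c 1, complex IV 17 and complex V 21.

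The respiratory chain sits in the inner mitochondrial membrane and passes electrons from NADH and succinate to oxygen while it pumps protons across that membrane. Complex I (NADH dehydrogenase) and complex II (succinate dehydrogenase) hand electrons to coenzyme Q, complex III passes them on to cytochrome c, and complex IV (cytochrome c oxidase) gives them to oxygen. Complex V, ATP synthase, lets the protons flow back and makes ATP, which dividing leukemia cells need along with the ATP of glycolysis.

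The study measured RNA by sequencing in B cell acute lymphoblastic leukemia (B-ALL) lines in which cyclin D3, the product of CCND3, was depleted or its kinase partners CDK4 and CDK6 were inhibited. All 3 are established human lines with a known fusion gene: BV-173 carries BCR-ABL, RS4;11 carries MLL-AF4 and NALM-6 is given with ETV6-PDGFRB. In the knockdown arm, cells received a lentiviral vector with a red fluorescent protein and either an shRNA against CCND3 or a scrambled shRNA, and transduced cells were sorted on day 4. In the drug arm, cells were kept for 3 days with 1 µM palbociclib, a CDK4 and CDK6 inhibitor, or with its solvent DMSO. The 12 groups held 34 samples, 3 in each group except for 2 in NALM-6 with CCND3 shRNA and 2 in BV-173 with DMSO.

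Each table compared 1 treated group with its control in 1 line and gave 1 value per gene and group, called the level here. No spread between the samples of a line could therefore be measured, the depth of the samples is unknown, and levels from separate tables were normalized separately. A log2 ratio of the treated to the control level was taken for each line. For the 13307 genes in all 6 tables, limma tested the 3 ratios of a treatment, 1 per line, with Benjamini-Hochberg adjustment over all genes. Calls were made below an adjusted p of 0.1. These p-values set the mean ratio against the spread between the 3 lines, which limma moderates with the variance of all genes. Each call of a member for a treatment or for the difference between treatments was repeated with 1 line left out, and of these 14 members ATP5F1E alone kept a call for palbociclib without any of the 3 lines. The calls were also repeated without the variance trend on mean level (no trend), with the spread pooled over both treatments, with centred ratios, with a pseudocount of 10 and for genes with a mean level of at least 10. For members, lines and settings that ended a call are named with the gene. Single calls of genes other than members and CCND3 were not examined with a line left out or with no trend. Within a single line genes past 1.5-fold were counted, with no test. Each sample is a bulk culture, in which fewer cells of a kind and less RNA per cell cannot be told apart.

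The labels were checked first. CCND3 stood at 19499 with scrambled and 4727 with CCND3 shRNA in NALM-6, at 16178 and 3353 in RS4;11, and at 6619 and 2060 in BV-173. With DMSO and palbociclib it stood at 28149 and 21960 in NALM-6, 17431 and 14267 in RS4;11, and 7466 and 5674 in BV-173. CCND3 fell with its shRNA (limma adjusted p = 0.00555), and was not called with palbociclib (−0.35, limma adjusted p = 0.126). With a pseudocount of 10 limma called 0 of all 13307 genes lower after knockdown, CCND3 included. Its lowest levels in either control arm were those of BV-173. All 12 B lineage markers were listed in every group, and their summed level was between 64548 and 116347. The 6 T cell markers summed to between 87.5 and 1588, with LCK giving nearly all of it in every group, and the 6 myeloid markers to between 88.8 and 561. In BV-173 the myeloid sum was 201 with DMSO and 558 with palbociclib, of which CSF1R gave 145 and 513, and the T cell sum was 140 and 310. MPO went there from 28.8 to 14.4. In NALM-6 the myeloid sum was 99.8 with DMSO and 171 with palbociclib, MPO was 13.7 and 68.4, and LCK 180 and 85.8. The part of these markers in the ratios of BV-173 and NALM-6 was not tested. Erythroid markers summed to between 0.145 and 1.63 and epithelial markers to between 13.8 and 38.5.

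Taken as a group, the respiratory chain and ATP synthase genes had median ratios above those of all genes in BV-173 and, with palbociclib, below those of all genes in NALM-6. After CCND3 knockdown the members of NALM-6 had a median log2 ratio of −0.02, those of RS4;11 of −0.05 and those of BV-173 of 0.28, beside 0.01, 0.01 and −0.01 for all genes. With palbociclib NALM-6 had a median of −0.14, RS4;11 of 0.06 and BV-173 of 0.36, beside 0.06, 0.01 and 0.04 for all genes. With the trend on transcript length removed, as described below, the BV-173 medians were 0.10 after knockdown and 0.21 with palbociclib. After knockdown, 42 of 97 members had a ratio above 0 in NALM-6, 40 of 99 in RS4;11 and 92 of 97 in BV-173, where 51.2%, 50.9% and 48.9% of all genes did. With palbociclib the counts were 31 of 98, 59 of 98 and 85 of 98, beside 53.5%, 51.7% and 52.9% of all genes. The members' share of the summed level of all genes went from 0.855% with DMSO to 1.05% with palbociclib in BV-173, and from 0.998% to 0.927% in NALM-6. In the knockdown tables it went from 0.968% to 1.09% in BV-173, from 0.892% to 0.882% in RS4;11, and was 0.856% in both groups of NALM-6. For RS4;11 with palbociclib it went from 1.06% to 1.11%. With levels taken per kilobase, the share after knockdown went from 1.90% to 1.80% in NALM-6, 1.93% to 1.78% in RS4;11 and 1.89% to 1.96% in BV-173. With palbociclib it went on that scale from 2.07% to 1.93% for NALM-6, 2.27% to 2.17% for RS4;11 and 1.66% to 1.86% for BV-173, and on it BV-173 alone had the larger share in the treated group.

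**Figure D1:**
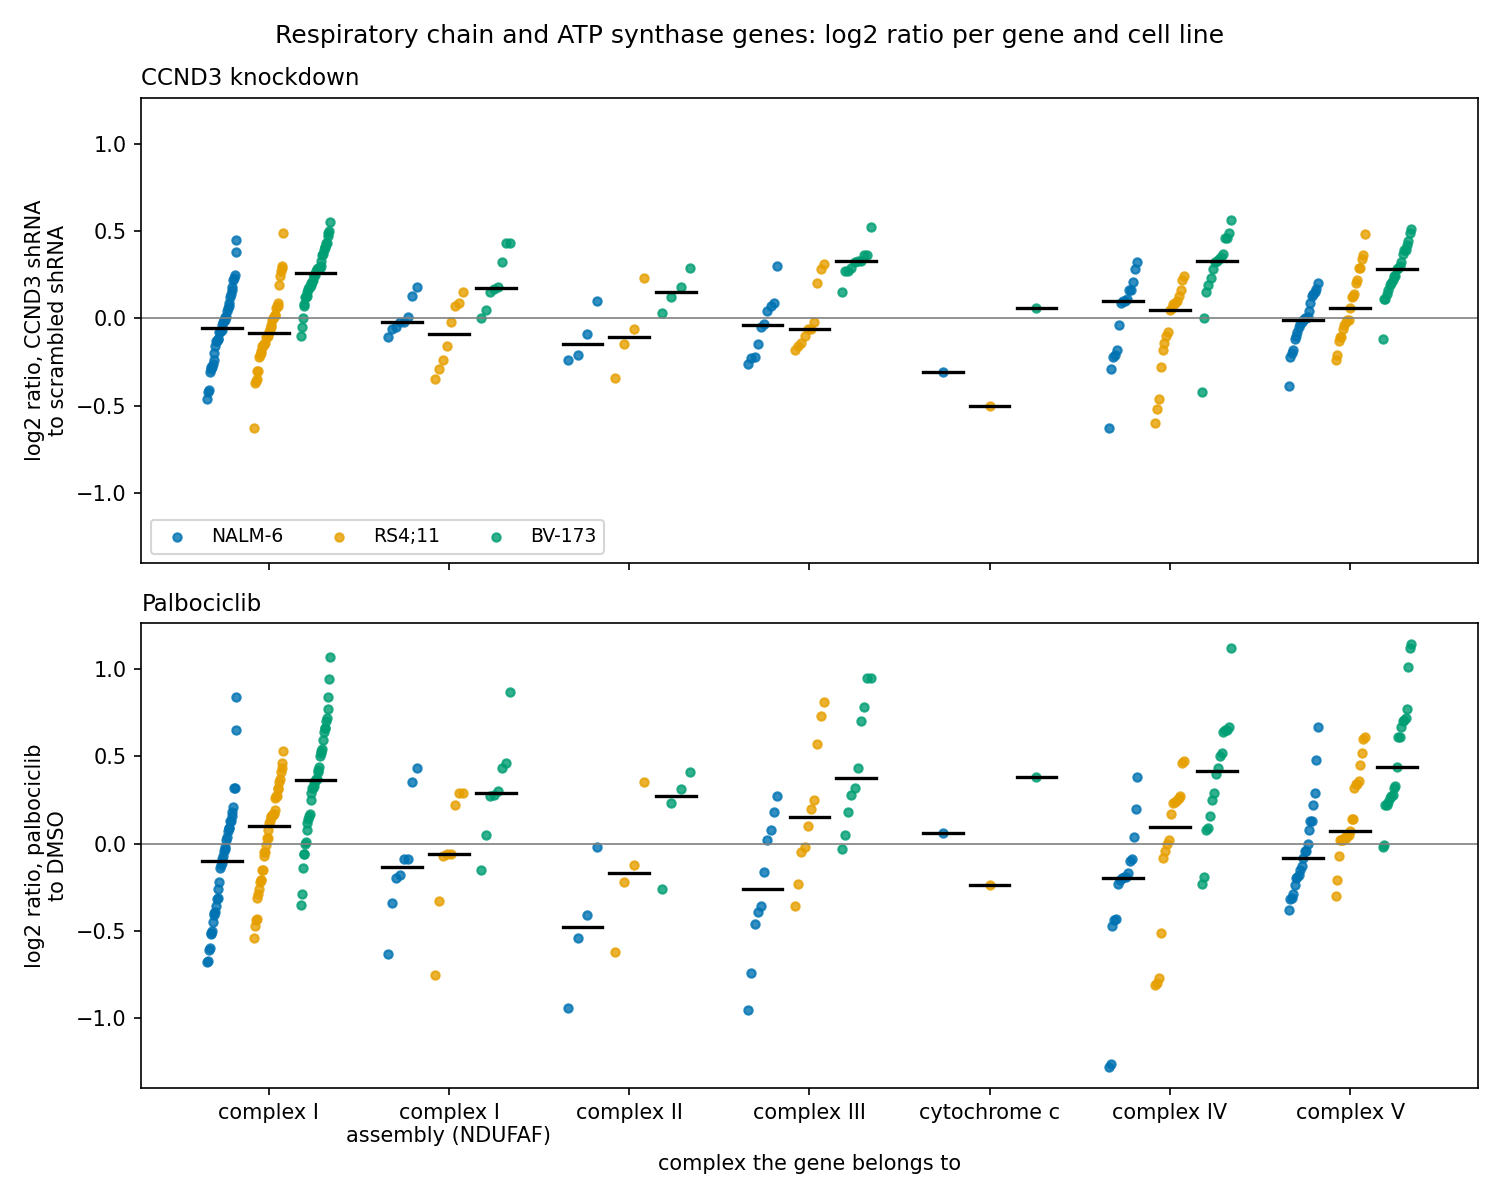
Log2 ratio of treated to control level for each gene (points), by complex on the horizontal axis and coloured by line, with CCND3 shRNA to scrambled shRNA above and palbociclib to DMSO below. Black bars are medians, and the BV-173 medians lie above 0 in every complex, from 0.06 for CYCS to 0.33 for complex IV after knockdown and from 0.27 for complex II to 0.44 for complex V with palbociclib.

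Few members went past 1.5-fold after knockdown. In NALM-6 none did upwards and 1 did downwards, COX8A, where 7.82% and 8.47% of all genes did. In RS4;11 none did upwards and COX8A and NDUFA6 did downwards, beside 9.73% and 9.72% of all genes, and in BV-173 no member did in either direction, beside 3.32% and 4.78%. With palbociclib NALM-6 had 3 members past 1.5-fold upwards and 10 downwards, beside 21.4% and 14.9% of all genes. The 3 were NDUFB2 and the readthrough genes NDUFC2-KCTD14 and ATP5MF-PTCD1, and the 10 included COX8A, NDUFA4L2, SDHA, NDUFS1 and UQCRH. RS4;11 with palbociclib had 4 members upwards (ATP5F1E, ATP5ME, UQCR11 and UQCRHL) and 5 downwards (COX8A, COX8C, NDUFA4L2, NDUFAF3 and SDHA), beside 16.7% and 15% of all genes. BV-173 with palbociclib had 30 of 98 members upwards and none downwards, beside 13.6% and 11.9% of all genes. With the length trend removed these were 11 of 96 upwards, beside 12.6% of all genes. Those 30 came from every complex except complex II, and cytochrome c was not among them. COX8A, an accessory subunit of cytochrome c oxidase, was past 1.5-fold downwards in both treatments of NALM-6 and of RS4;11 and in neither of BV-173.

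Over the 3 lines together, 14 of the 96 members were called in limma for at least 1 treatment or for the difference between the treatments. After knockdown 3 members rose (NDUFA10, UQCRB and ATP5F1D), beside 4.95% of all genes. No member fell in limma after knockdown, where 7.48% of all genes did, with 1 member at an unadjusted p under 0.05, beside 13.1%. With palbociclib 8 members rose (NDUFA3, NDUFA4, NDUFA11, NDUFB2, UQCRB, UQCR11, ATP5F1E and ATP5ME), beside 11.2% of all genes. In the same fit 4 members fell (NDUFA6, NDUFS1, SDHA and COX8A), beside 13.6%. UQCRB was the 1 member called in both treatments. These shares of 96 are at or below those of all genes, and the members are described below as single genes. With NALM-6, RS4;11 or BV-173 left out, the limma calls after knockdown numbered 0, 0 and 2 higher (2.09%, 0.917% and 6.99% of all genes) and 0, 0 and 3 lower (3.79%, 2.78% and 10.5%). Those with palbociclib numbered 6, 2 and 1 higher (5.25%, 5.78% and 7.49% of all genes) and 0, 0 and 4 lower (7.97%, 7.55% and 10.7%). The knockdown and palbociclib ratios were also compared within each line: the difference, knockdown less palbociclib, was called above 0 for SDHA, beside 7.16% of all genes, and below 0 for NDUFB2 and UQCR11, beside 4.16%. Left out in the same order, the lines gave 0, 0 and 0 calls above 0 (2.84%, 3.89% and 4.81% of all genes) and 0, 1 and 1 below 0 (0.767%, 2.11% and 2.66%) for the difference. Ratios above 0 in all 3 lines were seen for 23 members after knockdown and 25 with palbociclib, beside 22.5% and 28.3% of all genes. Ratios below 0 in all 3 lines were seen for 2 and 9 members, beside 23.3% and 26.9%.

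**Figure D2:**
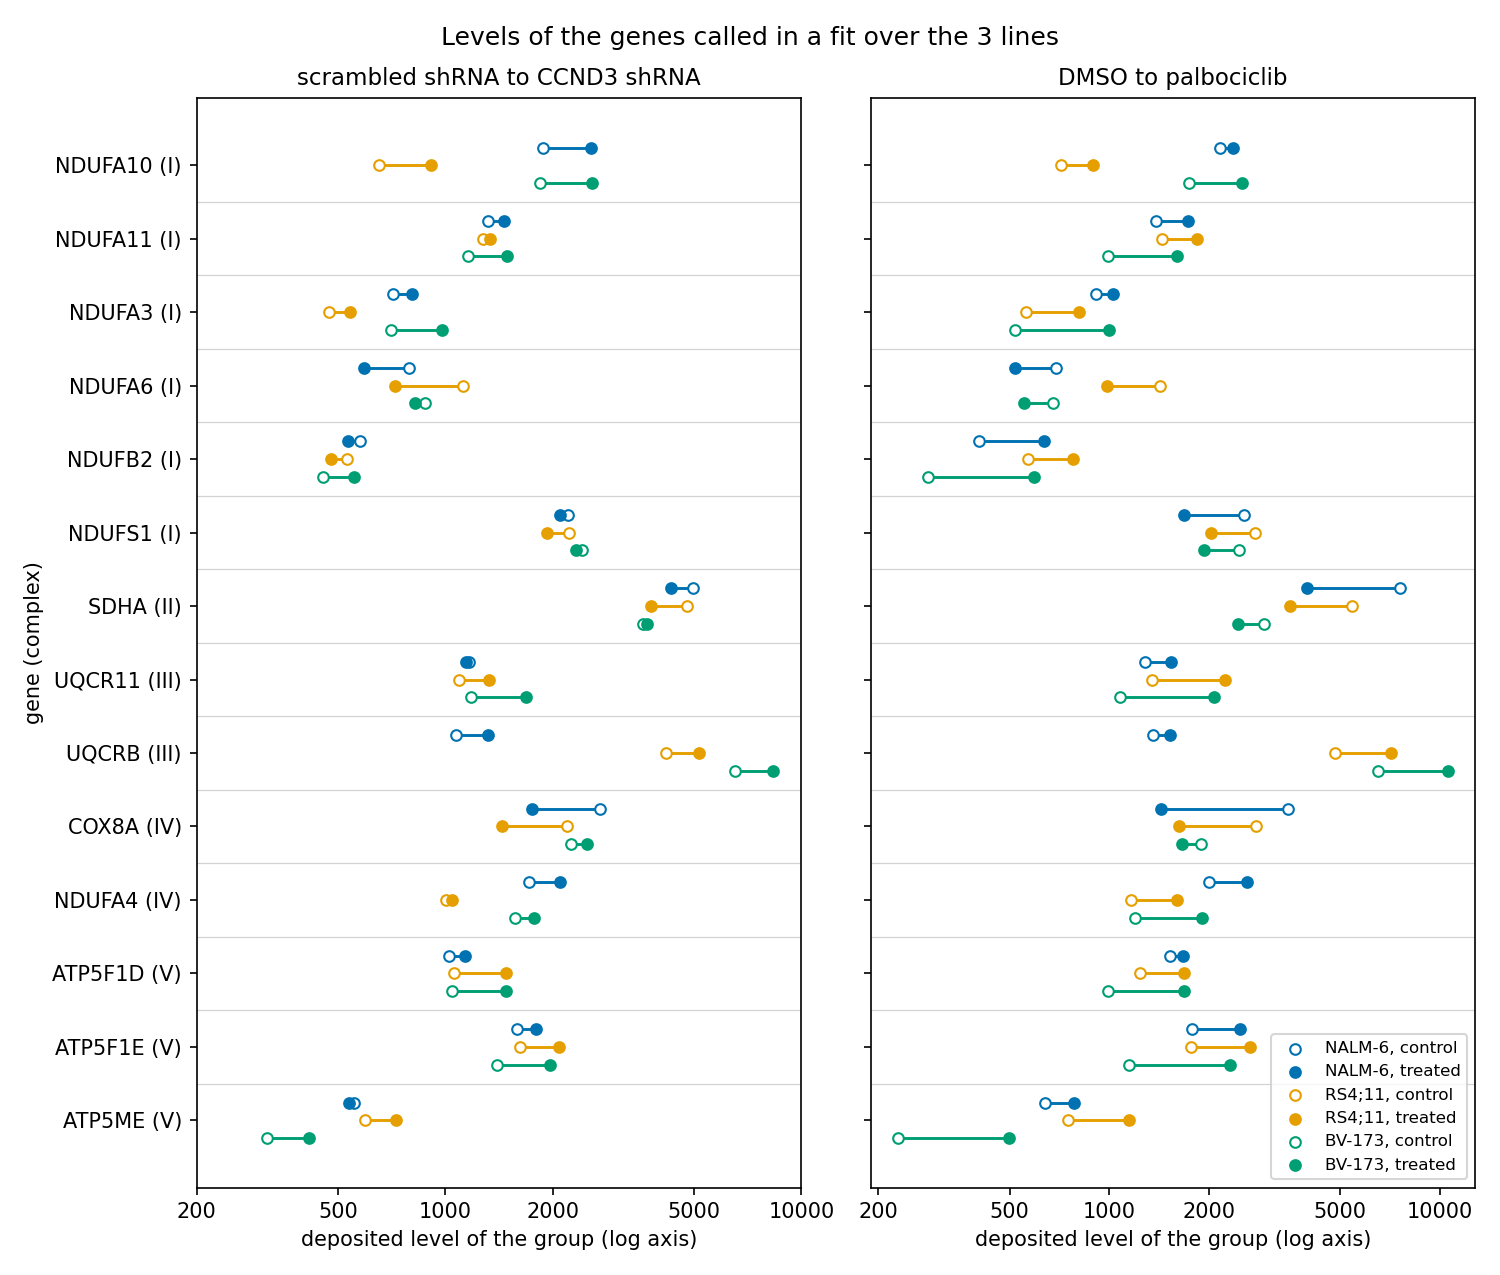
Deposited level of the 14 called genes (log axis) in the control group (open circle) and treated group (filled circle) of each line, with the knockdown tables on the left and the palbociclib tables on the right. The circles of a line come from 1 table, and COX8A, SDHA, NDUFS1 and NDUFA6 lie lower with palbociclib in all 3 lines and the other called genes of that treatment lie higher.

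In complex I, NDUFA10, an accessory subunit, had levels of 1875 and 2569 in NALM-6, 651 and 911 in RS4;11 and 1845 and 2588 in BV-173 with scrambled and CCND3 shRNA. It rose by nearly the same ratio in each line, with a mean log2 ratio of 0.48 ± 0.10 (moderated SE, limma adjusted p = 0.0349). For the ± values here and below, limma combines the spread over the 3 lines with the variance of all genes. With palbociclib its levels were 2166 and 2366, 716 and 896, and 1746 and 2515 in the same order of lines, a mean of 0.33 (limma adjusted p = 0.146). RS4;11 had the lowest NDUFA10 level in both control arms. Without NALM-6 the knockdown call on NDUFA10 was lost (limma adjusted p = 0.134), and without RS4;11 (0.183), with no trend (0.106) and with a pseudocount (0.113) as well.

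NDUFB2, an accessory subunit of the membrane arm of complex I, stood at 404 with DMSO and 636 with palbociclib in NALM-6, at 567 and 779 in RS4;11, and at 283 and 593 in BV-173. In the knockdown tables it stood at 575 and 531, 528 and 476, and 453 and 554. Palbociclib levels were the higher in all 3 lines, and knockdown levels were lower in 2 lines and higher in BV-173. Its mean log2 ratio was 0.73 ± 0.17 with palbociclib (limma adjusted p = 0.0424) and 0.01 ± 0.14 after knockdown (limma adjusted p = 0.982). The difference between the treatments, −0.72 ± 0.14, had a limma adjusted p of 0.0361. The palbociclib call on NDUFB2 was lost without NALM-6 (limma adjusted p = 0.119) and without BV-173 (0.126), and the call on the difference without NALM-6 (0.152), with no trend (0.125) and with pooled spread (0.267).

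The accessory subunits NDUFA3 and NDUFA11 rose with palbociclib too. NDUFA3 went from 911 to 1031 in NALM-6, 560 to 808 in RS4;11 and 521 to 998 in BV-173, and NDUFA11 from 1386 to 1730, 1442 to 1841 and 990 to 1610. Their mean log2 ratios were 0.55 ± 0.18 and 0.46 ± 0.13 (limma adjusted p = 0.0917 and 0.0708). The rise was largest in BV-173 for both, and with the trend on transcript length removed, as described below, NDUFA3 had a limma adjusted p of 0.122. NDUFA3 lost its call without RS4;11 (limma adjusted p = 0.200) and without BV-173 (0.264), and NDUFA11 without NALM-6 (0.132), RS4;11 (0.170) or BV-173 (0.200). With no trend both calls were lost (limma adjusted p = 0.151 and 0.142), and with a pseudocount that on NDUFA3 (0.13).

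NDUFS1, the largest of the subunits that carry iron-sulfur clusters in the arm that oxidizes NADH, went the other way. It stood at 2567 with DMSO and 1681 with palbociclib in NALM-6, at 2760 and 2035 in RS4;11, and at 2474 and 1941 in BV-173, a mean log2 ratio of −0.47 ± 0.12 (limma adjusted p = 0.0504). NDUFA6, an accessory subunit, went from 690 to 520, 1429 to 986 and 676 to 553, a mean of −0.41 ± 0.13 (limma adjusted p = 0.0904). After knockdown NDUFA6 levels were 788 and 592, 1122 and 723, and 878 and 820, and its mean log2 ratio of −0.38 ± 0.14 was not called (limma adjusted p = 0.145), while it was called without BV-173 (0.0597) and with the length trend removed (0.073). NDUFA6 and NDUFS1 were the members below their control in all 6 comparisons. With palbociclib NDUFS1 lost its call without NALM-6 (limma adjusted p = 0.164) and without RS4;11 (0.184), and NDUFA6 without NALM-6 (0.217), RS4;11 (0.375) or BV-173 (0.134). With no trend both calls were lost (limma adjusted p = 0.12 and 0.147), and with a pseudocount that on NDUFA6 (0.101). NDUFB3, another accessory subunit, had log2 ratios of −0.46, −0.30 and 0.08 after knockdown and was not called.

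Across the complex I genes NALM-6 had a knockdown median of −0.06, RS4;11 of −0.08 and BV-173 of 0.26, and the palbociclib median −0.10, 0.10 and 0.36. Per kilobase of transcript, the gene with the highest level in complex I was NDUFB9, a membrane arm subunit, at 3851 on average over the 12 groups (range 2043 to 6580). The complex I median on that scale was 1325, and that of its 8 NDUFAF assembly factors 271. None of the NDUFAF factors was called for a treatment. NDUFAF3, which helps to join early modules of complex I, stood at 1110 with DMSO and 659 with palbociclib in RS4;11, at 828 and 676 with scrambled and CCND3 shRNA there, and within 1.5-fold of its control in the other lines. Levels of the readthrough gene NDUFC2-KCTD14 were between 2.49 and 36.4, and since its reads overlap those of NDUFC2 its ratios are uncertain.

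Complex II is the succinate dehydrogenase that links the tricarboxylic acid (TCA) cycle to the chain, and all 4 of its genes were listed in every table. SDHA, the flavoprotein that oxidizes succinate, stood at 7566 with DMSO and 3957 with palbociclib in NALM-6, at 5433 and 3532 in RS4;11, and at 2937 and 2451 in BV-173. With scrambled and CCND3 shRNA it stood at 4954 and 4297, 4784 and 3779, and 3600 and 3676. The NALM-6 level with DMSO was the highest, and both BV-173 levels in the drug arm were lower than every NALM-6 and RS4;11 level there. SDHA fell with palbociclib, with a mean log2 ratio of −0.61 ± 0.16 (limma adjusted p = 0.0533), and was not called after knockdown (−0.17 ± 0.11, limma adjusted p = 0.386). Its difference between the treatments was 0.43 ± 0.13 (limma adjusted p = 0.0977). The palbociclib call on SDHA was lost without NALM-6 (limma adjusted p = 0.161) and without RS4;11 (0.149), and that on the difference without NALM-6 (0.347), RS4;11 (0.167) or BV-173 (0.137). With no trend both SDHA calls were lost (limma adjusted p = 0.115 and 0.231), and that on the difference also with pooled spread (0.398) and a pseudocount (0.143).

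SDHB, the iron-sulfur subunit, went from 2463 to 1696 in NALM-6, 1945 to 1669 in RS4;11 and 1705 to 2110 in BV-173 with palbociclib, and from 2112 to 1793, 1445 to 1386 and 2096 to 2566 after knockdown. Its ratios were below 0 in NALM-6 and RS4;11 and above 0 in BV-173 in both treatments, and it was called in neither. The membrane anchors SDHC and SDHD were not called either: with palbociclib their log2 ratios were −0.02, 0.35 and 0.41 for SDHC and −0.41, −0.12 and 0.23 for SDHD. On the scale per kilobase SDHB was the highest of the 4, at 1650 on average, with SDHA at 1523, SDHD at 1353 and SDHC at 542.

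In complex III, UQCRB, a small subunit close to the site that binds coenzyme Q, rose in both treatments. Its levels were 1068 and 1314 in NALM-6, 4158 and 5150 in RS4;11 and 6526 and 8350 in BV-173 with scrambled and CCND3 shRNA. With DMSO and palbociclib they were 1353 and 1532, 4824 and 7139, and 6529 and 10589. NALM-6 was the low line in every group and BV-173 the high one. The mean log2 ratio was 0.32 ± 0.09 after knockdown (limma adjusted p = 0.0849) and 0.48 ± 0.14 with palbociclib (limma adjusted p = 0.0737). The knockdown call on UQCRB was lost without NALM-6 (limma adjusted p = 0.274) and without RS4;11 (0.385), and the palbociclib call without RS4;11 (0.265) and without BV-173 (0.206). With no trend both UQCRB calls were lost (limma adjusted p = 0.194 and 0.147), and the knockdown call also with pooled spread (0.182) and a pseudocount (0.118).

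UQCR11, the smallest accessory subunit of complex III, stood at 1281 and 1540 in NALM-6, 1352 and 2247 in RS4;11 and 1079 and 2080 in BV-173 with DMSO and palbociclib. With scrambled and CCND3 shRNA it stood at 1167 and 1140, 1089 and 1322, and 1178 and 1685. Palbociclib ratios exceeded knockdown ratios in all 3 lines. UQCR11 rose with palbociclib (0.65 ± 0.16, limma adjusted p = 0.0473) and was not called after knockdown (0.25 ± 0.13, limma adjusted p = 0.283), and the difference of −0.39 ± 0.11 was called (limma adjusted p = 0.088). For UQCR11 the palbociclib call was lost without RS4;11 (limma adjusted p = 0.132) and without BV-173 (0.135), and that on the difference without NALM-6 (0.221), RS4;11 (0.259) or BV-173 (0.188). With no trend both UQCR11 calls were lost (limma adjusted p = 0.106 and 0.207), and that on the difference also with pooled spread (0.475) and a pseudocount (0.111).

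UQCRH, the hinge protein between cytochrome c1 and cytochrome c, went from 2604 to 1346 in NALM-6, 1816 to 1419 in RS4;11 and 2036 to 2313 in BV-173 with palbociclib. The core protein UQCRC1 went from 3916 to 2337, 4531 to 3867 and 3368 to 3301. For both the NALM-6 ratio was the lowest, −0.95 for UQCRH and −0.74 for UQCRC1, and neither was called over the 3 lines, although without BV-173 UQCRH was called below 0 (limma adjusted p = 0.0899). CYC1, which encodes cytochrome c1, was the highest complex III gene per kilobase at 4971 on average, with a range from 2131 to 10158 that followed the lines. UQCRHL, an intronless copy of UQCRH, was listed at 0.203 to 1.29. It shares sequence with UQCRH and its ratios are uncertain.

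Cytochrome c, the mobile carrier between complexes III and IV, is encoded by CYCS. Its levels were 4832 and 3895 in NALM-6, 1530 and 1079 in RS4;11 and 4572 and 4773 in BV-173 with scrambled and CCND3 shRNA, and 3964 and 4124, 1710 and 1452, and 3113 and 4063 with DMSO and palbociclib. RS4;11 held the lowest level in every group. The mean log2 ratio was −0.25 after knockdown (limma adjusted p = 0.275) and 0.07 with palbociclib (limma adjusted p = 0.785), and without BV-173 the knockdown effect on CYCS was called below 0 (limma adjusted p = 0.0654).

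In complex IV, COX8A fell with palbociclib. It stood at 3482 with DMSO and 1432 with palbociclib in NALM-6, at 2779 and 1624 in RS4;11, and at 1896 and 1657 in BV-173. After knockdown it stood at 2721 and 1754, 2194 and 1443, and 2250 and 2501. Control levels were highest in NALM-6 and the treated levels of the drug arm lay within a narrow range across the lines. The mean log2 ratio with palbociclib was −0.75 ± 0.21 (limma adjusted p = 0.063), and COX8A lost this call without NALM-6 (limma adjusted p = 0.192), without RS4;11 (0.108), with no trend (0.127) and with a pseudocount (0.108). The knockdown ratios of −0.63, −0.60 and 0.15 had a mean of −0.36 ± 0.16, which was not called (limma adjusted p = 0.224). Without BV-173 the knockdown effect on COX8A was called below 0 (limma adjusted p = 0.0188).

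NDUFA4, once counted as a complex I subunit and now placed in complex IV, went from 2004 to 2604 in NALM-6, 1163 to 1609 in RS4;11 and 1194 to 1905 in BV-173 with palbociclib. It rose with a mean log2 ratio of 0.51 ± 0.12 (limma adjusted p = 0.0452), a call that was lost without RS4;11 (0.15), without BV-173 (0.128) and with no trend (0.108). NDUFA4 knockdown ratios of 0.28, 0.06 and 0.19 were not called. Its paralog NDUFA4L2, known as a hypoxia-induced gene, went from 99.5 to 41.4, 136 to 78.6 and 128 to 109 with palbociclib. The NDUFA4L2 mean of −0.76 ± 0.27 was not called (limma adjusted p = 0.113).

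For most complex IV subunits with tissue-specific paralogs, the broadly expressed form carried the level. COX6A1, the form found outside muscle, averaged 6948 per kilobase over the 12 groups and was the highest complex IV gene, while its muscle paralog COX6A2 was listed in 1 table, at 0.170 and 0.158. COX6B1 averaged 4259 per kilobase and the testis form COX6B2 4.90. COX7A2 averaged 1779 and COX7A2L, which joins complexes III and IV, 1510 per kilobase, while the muscle form COX7A1 was listed in 5 tables at levels from 0.152 to 0.733. COX8C, the testis paralog of COX8A, was listed in 5 tables and had its highest level, 6.07, in RS4;11 with DMSO. COX4I1 averaged 5423 per kilobase, and COX4I2 and COX7B2 were not analysed here.

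Complex V is made of a catalytic head, a central stalk, a membrane ring of c subunits and accessory subunits. ATP5F1E, the epsilon subunit of the central stalk, went from 1786 to 2484 in NALM-6, 1764 to 2670 in RS4;11 and 1151 to 2316 in BV-173 with palbociclib. In the knockdown tables it went from 1594 to 1798, 1625 to 2082 and 1397 to 1963. All 6 treated levels were above their controls. The palbociclib effect was 0.69 ± 0.15 (limma adjusted p = 0.029), the lowest p of any member in that fit, and it stayed called without NALM-6 (0.0678), RS4;11 (0.0572) or BV-173 (0.0767). The ATP5F1E knockdown effect was 0.34 ± 0.11 (limma adjusted p = 0.107).

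ATP5F1D, the delta subunit beside it in the stalk, rose after knockdown, from 1021 to 1137, 1058 to 1477 and 1044 to 1485. Its mean log2 ratio of 0.38 ± 0.12 had a limma adjusted p of 0.0998, at the edge of the threshold, and ATP5F1D lost this call without NALM-6 (0.136), RS4;11 (0.438) or BV-173 (0.169). It also lost it with no trend (limma adjusted p = 0.184), pooled spread (0.189), centred ratios (0.101), a pseudocount (0.158) and the length trend removed (0.156). With palbociclib it went from 1527 to 1675, 1241 to 1690 and 990 to 1683 and was not called (limma adjusted p = 0.104). ATP5ME, subunit e of the membrane part, went from 639 to 782, 751 to 1147 and 230 to 499 with palbociclib, a mean of 0.67 ± 0.19 (limma adjusted p = 0.068), and lost this call without RS4;11 (0.133), without BV-173 (0.196), with no trend (0.115) and with a pseudocount (0.107). In the knockdown tables ATP5ME went from 553 to 535, 595 to 729 and 316 to 415 and was not called. BV-173 had the lowest ATP5ME levels of the 3 lines in all 4 of its groups. ATP5F1C, the gamma subunit of the central stalk, went from 4192 to 3701, 4735 to 4798 and 4045 to 4029 with palbociclib and was not called (−0.06 ± 0.12, limma adjusted p = 0.781). Its knockdown mean of 0.13 was not called either (limma adjusted p = 0.471).

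ATP5MC1, ATP5MC2 and ATP5MC3 encode the same mature c subunit. ATP5MC2 had the highest level per kilobase of all members, 11716 on average over the 12 groups (range 7932 to 16061), with ATP5MC1 at 2260 and ATP5MC3 at 1027. With palbociclib ATP5MC1 went from 1469 to 1184 in NALM-6, 1606 to 1772 in RS4;11 and 915 to 2019 in BV-173. ATP5MC2 had log2 ratios of −0.15, 0.34 and 0.22 there, and ATP5MC3 of −0.04, 0.02 and 0.70. None of the 3 was called over the lines. ATP5F1B, the catalytic beta subunit, followed ATP5MC2 at 9989 per kilobase, and ATP5F1A, the alpha subunit, averaged 5722. ATP5IF1, the inhibitor that blocks ATP hydrolysis by the enzyme, had log2 ratios between −0.21 and 0.22 in the 6 comparisons. The retrocopy ATP5MGL was listed at 3.98 to 7.92 and the readthrough gene ATP5MF-PTCD1 at 4.02 to 22.6, and both share sequence with a higher member and are uncertain.

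Differences between the lines were tested with a limma fit chosen after the values had been seen, in which 1 line was set against the mean of the other 2 over both treatments. The fit has 2 residual degrees of freedom, and its p-values measure how far the 2 treatments of a line agree. They measure no spread between samples. In BV-173, 21 of the 96 members were called with higher ratios than in the other lines, beside 5.11% of all genes, and 61 had an unadjusted p under 0.05, beside 13.3%. Of these, 5 belonged to complex I, 1 to complex II, 4 to complex III, 6 to complex IV and 4 to complex V, and CYCS made up the rest. No member was called lower in BV-173 in limma, beside 2.64% of all genes, and 0 had an unadjusted p under 0.05, beside 8.81%. In NALM-6, COX8A and NDUFS8, an iron-sulfur subunit of complex I, were called lower than in the other lines, beside 1.20% of all genes, and 40 members had an unadjusted p under 0.05, beside 9.27%. No member was called higher there in limma, beside 1.46%, with 1 at an unadjusted p under 0.05, beside 10.1%. Since a gene's differences from the other lines sum to 0, a high BV-173 ratio by itself lowers those of NALM-6 and RS4;11. In RS4;11, NDUFAF3 was called lower, beside 1.59% of all genes, with 4 members at an unadjusted p under 0.05, beside 9.46%, and 0 members higher in limma, beside 0.864%, with 0 at an unadjusted p under 0.05, beside 6.56%. NDUFS8 had ratios of −0.42, −0.11 and 0.41 after knockdown and −0.68, −0.15 and 0.37 with palbociclib, in the order NALM-6, RS4;11 and BV-173. COX8A and ATP5MC1 had the largest difference of BV-173 from the other lines, 0.80 each (limma adjusted p = 0.0461 and 0.0918).

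Transcript length went with this difference. The members are short: their median length was 864 bases, from 373 for ATP5ME to 5600 for NDUFA5, beside 3040 for all genes, and 56.2% of them were under 1000 bases, beside 5.85% of all genes. How the deposited lengths were derived is not stated, and they differ between tables by up to 1.33 times for a member, which bears on these values and on all levels per kilobase. Among genes with a mean control level of at least 100, the 124 other genes shorter than 700 bases in BV-173 had a median log2 ratio of 0.45 after knockdown and 0.55 with palbociclib, beside 0.33 and 0.61 for the 29 members of that length. Other genes of 2500 bases or more had medians of −0.09 and −0.10 in BV-173, beside 0.13 and 0.40 for the 8 members of that length. With palbociclib the 14 members from 1000 to 1500 bases had a BV-173 median of 0.29 and the 17 from 1500 to 2500 bases one of 0.30, beside 0.09 and 0.04 for other genes. After knockdown these were 0.30 and 0.19, beside 0.21 and 0.13. In NALM-6 the other genes under 700 bases had medians of 0.06 and 0.00, and in RS4;11 of 0.17 and 0.32. Across the 13307 genes, which are not independent replicates, Spearman's rho of length with the log2 ratio was −0.399 after knockdown and −0.181 with palbociclib in BV-173, and between −0.0746 and 0.0809 in the other comparisons.

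With the running median over genes of like length taken off each ratio, a step added after seeing the data, the members' NALM-6 medians were −0.03 and −0.07, and those of RS4;11 −0.07 and −0.01. In BV-173 with palbociclib 0 members were past 1.5-fold downwards on that scale, beside 13.2% of all genes. Of the 21 members called higher in BV-173, COX8A and CYCS were still called, beside 2.41% of all genes, with differences of 0.57 for both (limma adjusted p = 0.0811 and 0.0733). No member was called for NALM-6, beside 0.331% of all genes higher and 0.353% lower, or for RS4;11, beside 0.503% and 0.797%. In the fits over the 3 lines, NDUFA10 and UQCRB were still called higher after knockdown, and COX8A and NDUFA6 were called lower, beside 4.83% and 7.26% of all genes. With palbociclib 7 of the 8 members that rose and all 4 that fell were still called, and 5 more were called lower: NDUFA4L2, NDUFB4, NDUFS4, NDUFS7 and UQCRH. ATP5F1D was called higher there, and of all genes 11.5% were called higher and 15.1% lower. The members were left in the running median, so a part of any shift of their own can be taken off with it. The cause of the trend with length, and its part in the members' ratios, were not tested.

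**Figure D3:**
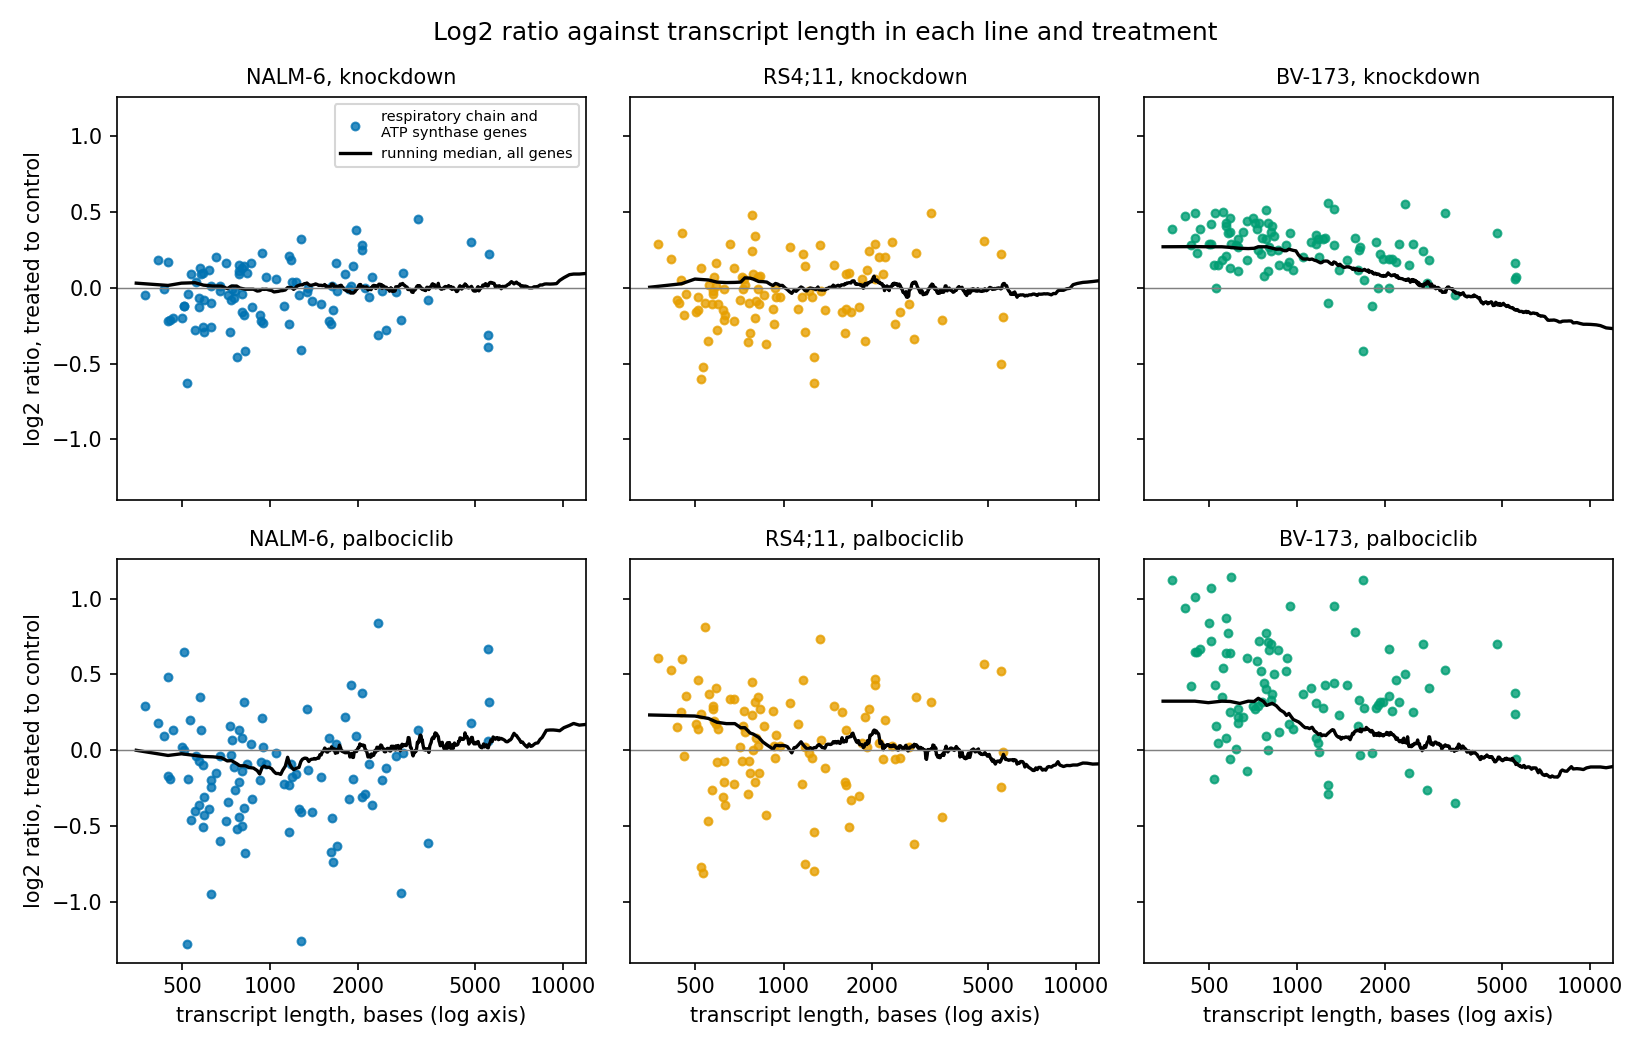
Log2 ratio of treated to control level (vertical axis) against transcript length in bases (log axis) for each member (points), with the running median over all genes (black line), per line and treatment. The running median slopes down in both BV-173 panels, where it is 0.25 and 0.28 at the members' median length, against −0.04 to 0.09 in the other panels.

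**Figure D4:**
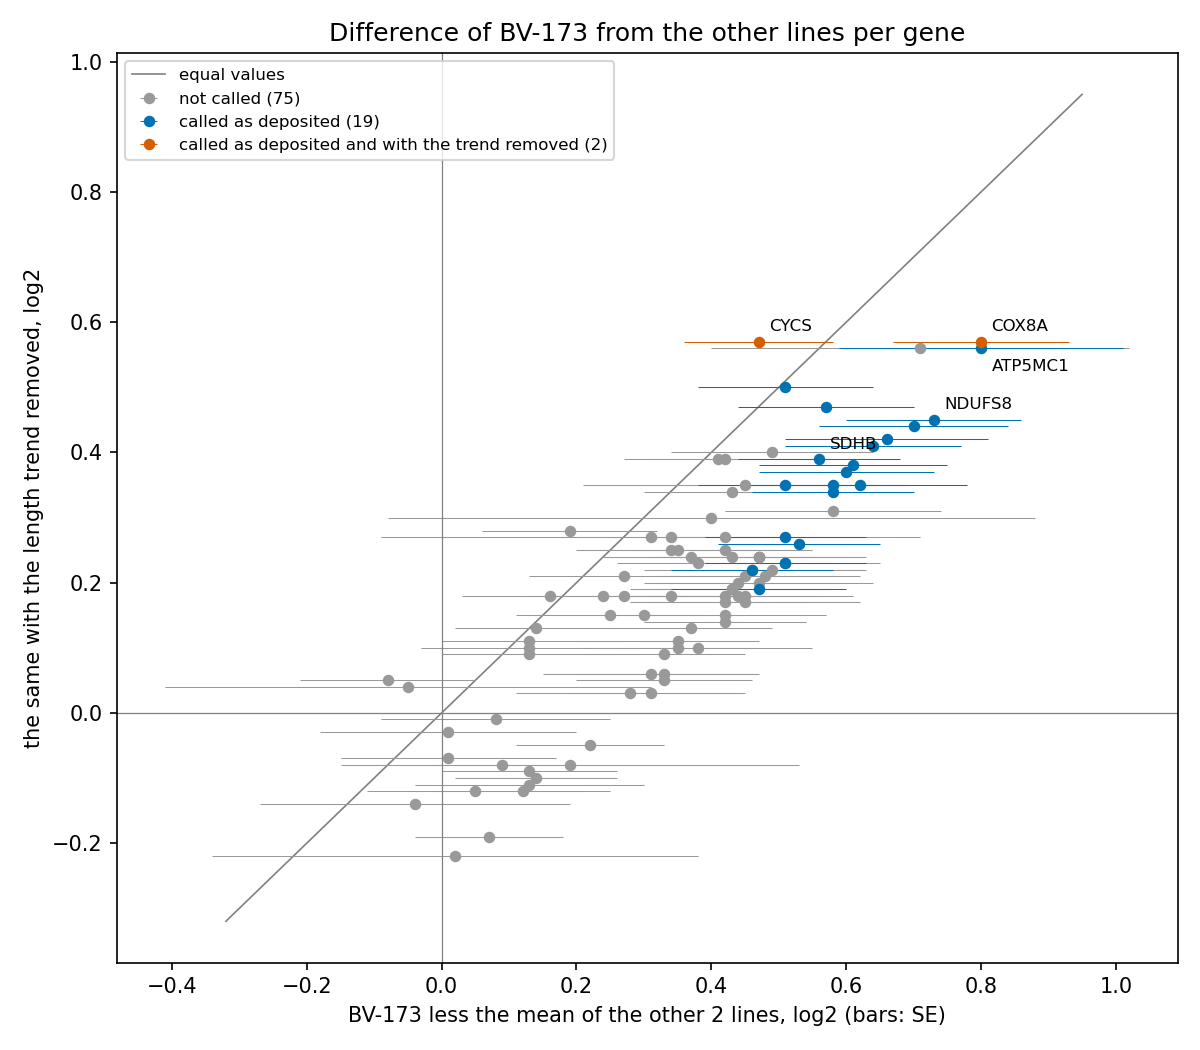
Difference of BV-173 from the mean of the other lines per member, as deposited (horizontal axis, log2, bars are moderated SE) and with the length trend removed (vertical axis, log2). Most points lie below the line of equal values, and COX8A and CYCS, both at 0.57 on the vertical axis, are the members called on both scales.

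Promoter windows of ATP5ME, UQCR11 and COX8A are shown because these genes are among those that rose or fell with palbociclib. They are RefSeq reference sequences on GRCh38.p14, from 250 bases before to 30 bases after the annotated start, with capitals for the motif matches found in them. ATP5ME (gene ID 521) lies on the minus strand at chr4:674247-674526, COX8A (gene ID 1351) on the plus strand at chr11:63974370-63974649 and UQCR11 (gene ID 10975) on the minus strand at chr19:1605433-1605712.
ATP5ME: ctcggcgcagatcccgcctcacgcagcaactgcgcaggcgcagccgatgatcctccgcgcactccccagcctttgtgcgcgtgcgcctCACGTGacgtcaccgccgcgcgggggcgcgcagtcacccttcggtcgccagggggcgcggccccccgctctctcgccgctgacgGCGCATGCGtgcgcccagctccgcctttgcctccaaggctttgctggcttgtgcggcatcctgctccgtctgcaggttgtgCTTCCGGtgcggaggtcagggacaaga
UQCR11: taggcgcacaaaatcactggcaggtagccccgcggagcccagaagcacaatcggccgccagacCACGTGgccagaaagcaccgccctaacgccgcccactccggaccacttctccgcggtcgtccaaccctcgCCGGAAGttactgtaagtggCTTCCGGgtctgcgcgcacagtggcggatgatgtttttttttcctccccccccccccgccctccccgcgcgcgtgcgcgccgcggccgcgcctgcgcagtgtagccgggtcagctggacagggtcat
COX8A: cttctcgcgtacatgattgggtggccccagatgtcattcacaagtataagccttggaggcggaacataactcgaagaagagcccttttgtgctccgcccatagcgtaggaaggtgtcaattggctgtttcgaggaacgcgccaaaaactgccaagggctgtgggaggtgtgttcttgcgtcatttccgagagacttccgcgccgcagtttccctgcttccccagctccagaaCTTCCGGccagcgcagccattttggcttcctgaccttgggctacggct
In the ATP5ME window the capitals mark, from the 5′ end, an E-box, the NRF1 word and the ETS word read on the other strand, which begins at base 4 after the start. In UQCR11 they mark an E-box and 2 ETS words, and in COX8A 1 ETS word, which begins 18 bases before the start at −18.

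The motifs were fixed words searched on both strands in the 300-base windows of 78 of the 96 members with a RefSeq entry. These windows reach past those shown, and a YY1 word that begins at base 27 of ATP5ME is counted and not marked. The NRF1 word GCGCATGCG, for a factor known for its sites in respiratory chain promoters, was in 11 of the 78 windows (14.1%), beside 3.71% of the 10840 windows of listed genes and 2.10% of all 27305 windows. The ETS word CCGGAAG, the core read by GABPA, was in 21 (26.9%), beside 18.8% and 10.7%. The YY1 word AAGATGG was in 16 (20.5%), beside 7.53% and 6.06%. ATP5ME, ATP5MG, ATP5PF and SDHB carried both the YY1 and the ETS word, and the 2 words shared bases in 0 members. The E2F word TTTCCCGC was in 3 (3.85%), beside 2.53% and 1.66%, and the E-box CACGTG in 8 (10.3%), beside 10% and 7.43%. COX6A1, ATP5PF, SDHD and ATP5ME carried both the NRF1 and the ETS word. A match is a description of letters in a window and not of binding.

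Transcripts of NRF1, GABPA and YY1, named with their words above, were measured as well. NRF1 stood at 565 with DMSO and 206 with palbociclib in NALM-6, at 637 and 206 in RS4;11, and at 462 and 237 in BV-173. With scrambled and CCND3 shRNA it stood at 631 and 447, 575 and 316, and 508 and 414. NRF1 was lower in every treated group. It fell in both treatments, by a mean log2 ratio of −1.35 ± 0.19 with palbociclib (limma adjusted p = 0.0114) and −0.55 ± 0.16 after knockdown (limma adjusted p = 0.0842), and its difference of 0.79 ± 0.15 was called (limma adjusted p = 0.0369). With a pseudocount of 10 limma called 0 of all 13307 genes after knockdown, and with pooled spread 0 for the difference. The NRF1 knockdown and difference calls were lost there, as was the knockdown call on PPARGC1A given below. Of the 14 factors of mitochondrial transcription and biogenesis, TFAM and YY1 fell with palbociclib as well, ESRRA and TWNK rose, and PPARGC1A rose after knockdown from low levels, 3.22 to 8.09 in NALM-6, 3.10 to 5.27 in RS4;11 and 1.23 to 1.47 in BV-173. GABPA was not called (−0.35 with palbociclib, limma adjusted p = 0.129).

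Other mitochondrial gene lists gave the surroundings of the chain, to be read beside the shares of all genes called in limma: 4.95% higher and 7.48% lower after knockdown, and 11.2% and 13.6% with palbociclib. Of 14 TCA cycle genes, 4 fell with palbociclib (FH, IDH2, DLST and SUCLA2) and OGDH rose. FH, fumarase, which uses the product of complex II, went from 2395 to 1017 in NALM-6, 3103 to 1319 in RS4;11 and 2611 to 1776 in BV-173, a mean of −1.01 ± 0.17 (limma adjusted p = 0.0166). IDH2, an isocitrate dehydrogenase, went from 7239 to 3085, 7099 to 3342 and 4611 to 3124, a mean of −0.96 ± 0.16 (limma adjusted p = 0.0169). FH and IDH2 were called for the difference between the treatments too, at 0.64 and 0.80. With pooled spread these difference calls were lost, since limma then called 0 of all 13307 genes. SDHA and FH, whose products act on successive steps of the cycle, both fell with palbociclib. Both were called for the difference and lost that call with pooled spread, and SDHA lost it also with each line left out. Whether FH kept it with a line left out or with no trend was not examined. With no trend 0.353% of all genes were called above 0 for the difference, beside 7.16% in the main fit.

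Among 35 assembly factors of complexes II to V, SCO2, a copper chaperone of complex IV, rose in both treatments. SCO2 went from 139 to 291, 173 to 456 and 157 to 505 with palbociclib and from 123 to 245, 163 to 262 and 249 to 467 after knockdown, with means of 1.39 ± 0.21 and 0.86 ± 0.16 (limma adjusted p = 0.0124 and 0.026). ATPAF2, COX14 and SDHAF2 rose with palbociclib, and COA1 and UQCC2 fell. Of 9 further complex I assembly factors TIMMDC1 rose and COA1, which is on both lists, fell with palbociclib. Of 7 carriers and channels for ATP, ADP and phosphate, SLC25A6 rose after knockdown and SLC25A5 fell with palbociclib. Of 13 coenzyme Q genes COQ2 fell with palbociclib, and of 10 genes for cristae CHCHD3 did. Of 25 genes for mitochondrial protein import in all 6 tables TOMM7 rose and TIMM21 fell after knockdown, and 3 rose and 2 fell with palbociclib. Of 78 mitochondrial ribosomal protein genes 3 rose and 7 fell with palbociclib and 1 fell after knockdown. Of 87 cytosolic ribosomal protein genes in all 6 tables, 62 rose after knockdown and 14 with palbociclib, where 3 and 8 of the 96 respiratory chain members did. With a pseudocount of 10 limma called 0 of all 13307 genes after knockdown, so the knockdown calls of all these lists were lost. Set against the other lines, BV-173 had 10 of the 78 mitochondrial ribosomal protein genes called higher in limma, beside 5.11% of all genes. For import it was 3 of 25, and for cytosolic ribosomal proteins 1 of 87. BV-173 medians of these lists, in the same order, were 0.21, 0.22 and 0.53 after knockdown and 0.14, 0.33 and 0.55 with palbociclib. Subunits encoded by mitochondrial DNA were not analysed here.

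Cell lines differed in the level of some members in the control groups, and those on chromosome 8 stood out in BV-173 against NALM-6. The 5 are UQCRB, CYC1, NDUFAF6, COX6C and NDUFB9. The log2 ratio of the BV-173 to the NALM-6 level with scrambled shRNA was 2.61 for UQCRB, 1.87 for CYC1, 1.49 for NDUFAF6, 1.38 for COX6C and 1.36 for NDUFB9. With DMSO it was 2.27, 1.18, 1.35, 0.87 and 1.20 in the same order. Among genes with a mean control level of at least 100, the 334 of chromosome 8 had a median of 1.17 and 1.21 in the same comparisons, beside −0.12 and −0.14 for 9676 autosomal genes and 0.13 and −0.39 for the 88 autosomal members. RS4;11 lay between in its median over chromosome 8, which against NALM-6 was 0.16 and 0.33, and in UQCRB, at 1.96 and 1.83. Against RS4;11 the BV-173 ratio was 0.65 and 0.44 for UQCRB, 1.11 and 0.59 for CYC1, and 1.32 and 0.83 for NDUFAF6. It was 0.57 and −0.06 for COX6C and 0.91 and 0.60 for NDUFB9, beside 0.75 and 0.67 for chromosome 8. These levels come from separately normalized tables, there is 1 value per group, and the number of gene copies was not analysed here. At the other end of the BV-173 to NALM-6 ratios, NDUFA8, ATP5ME, UQCRQ and SDHA were lowest with DMSO, at −1.56, −1.47, −1.45 and −1.37. With scrambled shRNA theirs were −0.77, −0.81, −1.13 and −0.46.

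**Figure D5:**
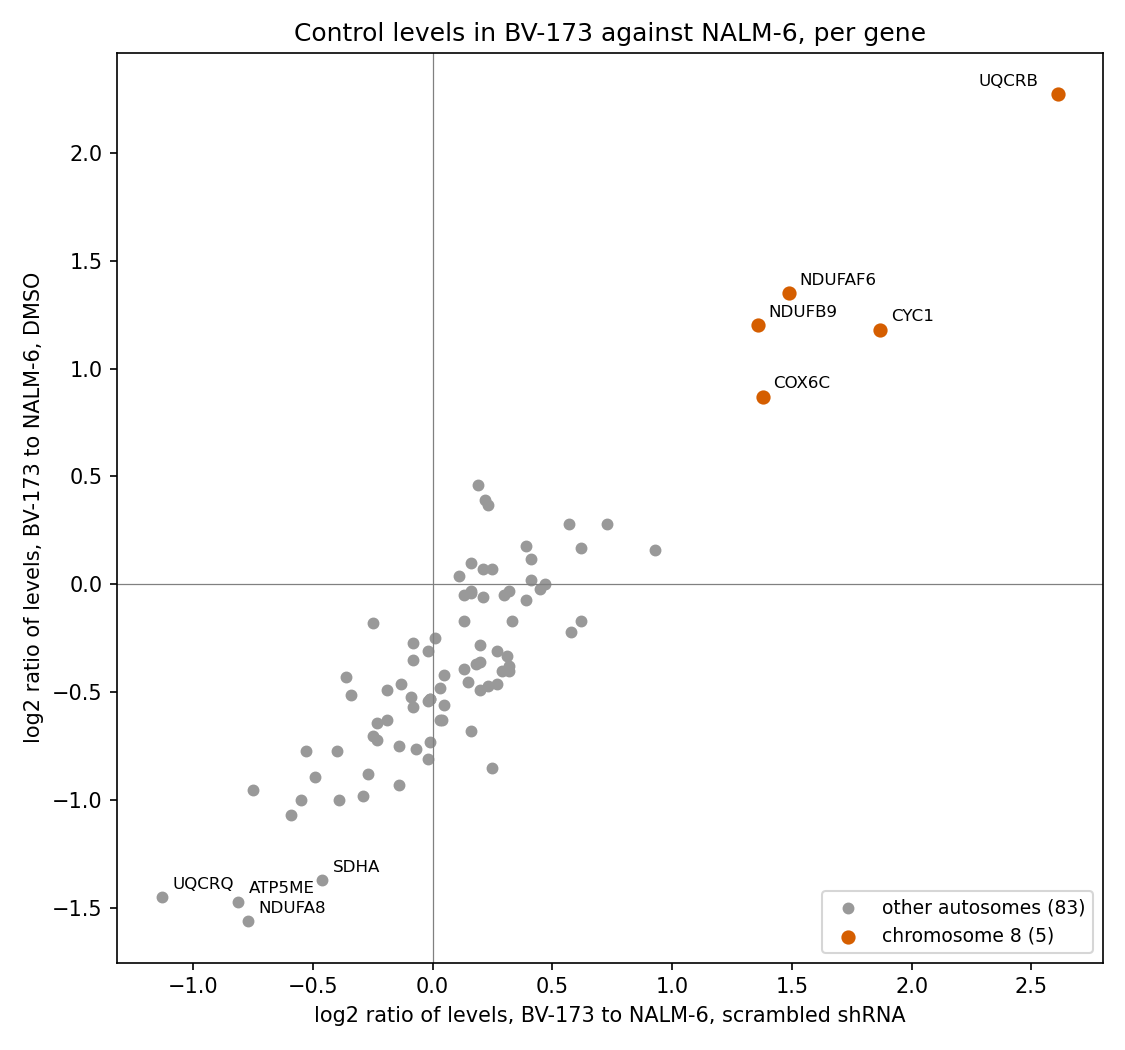
Log2 ratio of the BV-173 to the NALM-6 level of each autosomal member, with scrambled shRNA on the horizontal and DMSO on the vertical axis. The 5 members on chromosome 8 (orange) lie at 0.87 or more on both axes, above all other members on the vertical axis.

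The scatter of the members' ratios was compared between treatments of a line, which have separate controls. Across the 96 members, which are not independent replicates, Spearman's rho of the knockdown with the palbociclib ratio was 0.310 for NALM-6, 0.697 for RS4;11 and 0.409 for BV-173, beside 0.568, 0.707 and 0.433 across all genes. Between lines under the same treatment it ranged for the members from 0.144 (NALM-6 and BV-173 after knockdown) to 0.605 (NALM-6 and BV-173 with palbociclib). Of the 3 lines, RS4;11 had the highest rho between its treatments, across the members as across all genes.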

How the data were processed

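RNA was sequenced by the authors from oligo dT selected mRNA of 34 samples in 12 groups. The steps of the authors were SOAPnuke for filtering, Bowtie2 for mapping on hg38, RSEM for gene levels and DESeq2 for comparing groups (versions not given in the sources used here). The deposited signal values hold 1 value per gene and group, scaled by the authors within the pair of groups of a table. Gene names, lengths and these values were taken. All 6 tables were used, with 0 columns of levels unused. The columns with the authors' own fold changes, p-values and direction labels were not used. The depth of the samples is not given, so the precision of low levels is unknown.

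Log2 ratios were taken without a pseudocount, since no level was 0. Fits used R 4.3.3 and limma 3.58.1 (eBayes with a trend on the mean log2 level), and other steps scipy 1.17.1, pandas 2.3.3 and numpy 2.4.6 under Python 3.11.15, with figures drawn in matplotlib 3.10.9. The fits were tested on simulated data. The difference between the treatments was fitted within lines. The fit of 1 line against the other 2 and the removal of the length trend were chosen after the values had been seen. Alternatives were no trend, pooled spread, an adjusted p under 0.05, centred ratios, a pseudocount of 10, a level of at least 10, each line left out, and a fold of 1.25.

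Named genes were, in each complex, the 2 highest and the 2 lowest members by mean ratio of each treatment and the highest per kilobase, members called for the difference, members past 1.5-fold in all 3 lines, paralog families, single subunit genes and CCND3. Other genes were named after their values had been seen, among them NDUFAF3, NDUFS8, the chromosome 8 members and the genes of the other lists. The members and lists were chosen with earlier results of these data known. Promoter sequences are from RefSeq (GRCh38.p14).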

Additional observations from a re-analysis of the deposited data

Results flagged for a closer look

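The ratios of BV-173 differed from those of the other lines, over both treatments, for 21 members, all of them higher in BV-173 in limma, beside 5.11% of all genes. With the length trend removed 2 of the 21 were called, beside 2.41% of all genes, and the differences that remained for the 21 were from 0.19 for COX6C to 0.57 for COX8A and CYCS, with ATP5MC1 at 0.56, ATP5MC3 at 0.50 and UQCRQ at 0.47. With a pseudocount of 10 limma called 0 of the members and 0 of all genes. The differences were 0.80 for ATP5MC1, 0.80 for COX8A, 0.73 for NDUFS8, 0.70 for UQCR10, 0.66 for UQCRH, 0.64 for NDUFS6 and 0.62 for NDUFB3. They were 0.61 for NDUFA1, 0.60 for COX7B, 0.58 for COX6A1, 0.58 for ATP5MF, 0.57 for UQCRQ, 0.56 for SDHB and 0.53 for NDUFB10. CYC1, COX7C, ATP5MC3 and ATP5PF had 0.51 each, CYCS and COX6C 0.47 each and COX6B1 0.46.

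NALM-6 differed from the other lines for 2 members, NDUFS8 at −0.68 and COX8A at −0.60, and RS4;11 for 1 member, NDUFAF3 at −0.64, beside 1.20% and 1.59% of all genes. With the length trend removed these were −0.45, −0.39 and −0.60 and none was called (limma adjusted p = 0.168, 0.199 and 0.119). Of all genes 0.353% were then called lower in NALM-6 and 0.797% in RS4;11.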

How the results depend on the processing

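No called result changed direction under any alternative. The members' medians kept their sign except RS4;11 with palbociclib, −0.01 with the length trend removed. The cause of the changes in counts was not tested. After knockdown, the 3 members called higher were 0 with no trend (2.09% of all genes) and 1 with pooled spread (2.01%). At an adjusted p under 0.05 they were 1 (2.0%). With a pseudocount of 10 they were 0, where limma called 0 of all 13307 genes. With 1 line left out they were 0 to 2. The 0 called lower after knockdown were 0 to 3 with 1 line left out and 2 with the length trend removed (7.26% of all genes). With palbociclib, the 8 called higher were 2 with no trend (8.44% of all genes) and 13 with pooled spread (17.9%). At an adjusted p under 0.05 they were 4 (5.58%), and with 1 line left out 1 to 6. The 4 called lower were 0 with no trend (9.85%), 0 at an adjusted p under 0.05 (9.19%) and 2 with a pseudocount (11.8%). With the length trend removed they were 9 (15.1%), and with 1 line left out 0 to 4. For the difference, the 1 called higher was 0 with no trend (0.353% of all genes), pooled spread (0%) or an adjusted p under 0.05 (3.58%). It was also 0 with a pseudocount (4.21%) or any line left out, and 3 with the length trend removed (7.82%). The 2 called lower were 0 with no trend (0.173%), 0 with pooled spread (0%) and 1 at an adjusted p under 0.05 (1.3%). With a pseudocount they were 1 (1.73%), and with 1 line left out 0 to 1.

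The 21 members higher in BV-173 were 2 at an adjusted p under 0.05, 0 with a pseudocount and 2 with the length trend removed, where limma called 141, 0 and 321 of all 13307 genes higher. The 2 lower in NALM-6 and the 1 lower in RS4;11 were 0 in each of these alternatives. Of all genes 0.0977%, 0% and 0.353% were called lower in NALM-6, and 0.218%, 0.338% and 0.797% in RS4;11, in the same order. At the lower fold the members higher and lower were 2 and 5 in NALM-6, 4 and 10 in RS4;11 and 34 and 1 in BV-173 after knockdown, and 7 and 28, 21 and 12, and 54 and 1 with palbociclib. Shares of all genes at that fold are not given here, so these counts cannot be set against all genes. With a pseudocount 1 member was past 1.5-fold higher in NALM-6 with palbociclib, and with the length trend removed 11 in BV-173.

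ATP5F1E kept its palbociclib call in all 10 alternatives (limma adjusted p from 0.00628 to 0.0815), NDUFB2 in 8, UQCR11 and NDUFA4 in 7. After knockdown NDUFA10 kept its call in 6, UQCRB in 4 and ATP5F1D in 1. Over the named members, other called members and CCND3, 453 outcomes of the knockdown fit were the same, 20 weaker, 5 stronger and 1 moved. Of the palbociclib fit, 422 were the same, 47 weaker and 10 stronger. Most of these outcomes are of members that were not called in the main fit. No paired analysis was possible because the columns hold 1 value per group and carry no replicate numbers.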
